A study of Mus musculus with 8 samples.

Results

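The genes of interleukin-1 (IL-1) and the inflammasome were followed in primary mouse microglia treated with IgG. The group held 10 genes, chosen by symbol in the table of counts: the ligands Il1a, Il1b and Il18, the inhibitors Il1rn and Il18bp, the sensor Nlrp3, the adaptor Pycard, the caspases Casp1 and Casp4, and the pore protein Gsdmd. All 10 symbols were found among the 55385 genes of the table, and all 10 passed the filter on low counts that left 17537 genes to test. The cells were microglia of wild-type mice, shaken off mixed cultures of neocortex and hippocampus in which the cells of several newborn brains were pooled. In the IgG group the cultures received 10 µg/ml IgG for 24 h at DIV15, the day in vitro. In the control group they did not. The labels call these cultures untreated, and the methods name PBS. There were 4 libraries in each group, and the labels give each replicate number 1 date, found in both groups, which gave 4 pairs. What was done on that date is not given in the sources used here. Because cells of several brains were pooled, a library is not an animal.

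IL-1α and IL-1β, the products of Il1a and Il1b, act on the same receptor, and the product of Il1rn occupies that receptor without signalling. IL-18 is a related cytokine, and the product of Il18bp binds it in the fluid outside the cell. Il1b is transcribed after an NF-kB signal, and its product is made as an inactive precursor. NLRP3 assembles with the adaptor ASC, the product of Pycard, into an inflammasome that activates caspase-1. Caspase-1 cuts the precursors of IL-1β and IL-18, and it cuts gasdermin D, whose fragment forms pores in the plasma membrane. Casp4 encodes the mouse enzyme also called caspase-11, which senses endotoxin inside the cell and cuts gasdermin D as well. Cleavage, secretion and pore formation are changes of protein that a count of mRNA does not measure. In the brain, microglia are a main source of IL-1β.

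The 8 libraries held 21287816 to 23703216 counts each. IgG libraries 1 and 3 stood apart, with 4.85% and 5.59% of counts on mitochondrial genes against 1.97% to 2.41% in the other 6 libraries. The changes in pairs 1 and 3 also followed GC content across 12472 genes (Spearman's rho -0.484 and -0.477), those in pair 4 followed it the other way (rho 0.40), and those in pair 2 did not clearly follow it (rho -0.0335). With exon length the values were 0.252, -0.025, 0.262 and -0.509 in pairs 1 to 4, so that pair 4, too, carried trends. Genes are not independent replicates in these values. The fitted log2 fold changes were therefore computed for pairs 2 and 4 alone as well, and with the trends on length and GC content removed, whereas the ratios and the levels per length were not. The summed level of 10 microglia markers was 5517 to 5880 CPM (TMM-scaled counts relative to library size) in the control libraries. In the IgG libraries it was 5821 to 6982 CPM, highest in libraries 1 and 3. Aif1 and Fcrls of this list passed adjustment, as 0.393% of all tested genes did, both higher with IgG. Of the 10 markers 8 had a log2 fold change above 0 and 2 had one below it, Trem2 (-0.14) and Sall1 (-0.054). Trem2 changed by -0.35, -0.095, -0.42 and 0.33 in pairs 1 to 4. For 6 markers of border-associated macrophages the sum was 57.5 to 82.5 CPM in the control and 52.3 to 108 CPM in the IgG libraries, most of it Mrc1. Cbr2 of this list, at 0.258 to 1.203 CPM in the control and 0.956 to 2.08 CPM in the IgG libraries, was higher in all 4 pairs and met the criterion of the study, an unadjusted p under 0.01 with a log2 change of more than 0.5 in size (log2 fold change 1.23, unadjusted p 0.0032, adjusted p 0.220), whereas F13a1 was lower in all 4 (-0.31, adjusted p 0.74). Markers of the oligodendrocyte lineage (8 genes) were present, with a sum of 1245 to 1907 CPM in the control and 1077 to 1808 CPM in the IgG libraries. Of these 8 genes 7 had a log2 fold change below 0, and Cnp was the only 1 above it. Olig2 of this list was lower with IgG in all 4 pairs (log2 fold change -0.50, unadjusted p 0.0038, adjusted p 0.235), whereas Cnp was higher in all 4 (0.098, adjusted p 0.677). Markers of endothelial cells (4 genes) summed to 6.55 to 10.9 CPM in the control and 5.55 to 14.2 CPM in the IgG libraries. Cdh5 of this list, at 0.258 to 1.298 CPM in the control and 0.592 to 2.80 CPM in the IgG libraries, was higher in all 4 pairs (0.98, unadjusted p 0.0033, adjusted p 0.221). Kdr, at 6.20 to 8.83 CPM in the control libraries, had a log2 fold change of 0.050 (adjusted p 0.924) and was lower in pair 4 (-0.53). All 3 tested genes of this list had a log2 fold change above 0, while Cldn5 was at 0 counts throughout. Cbr2, F13a1, Olig2, Cnp, Cdh5 and Kdr were singled out after their values were seen, and the part of the marker lists in the results was not tested. P2ry12 and Tmem119, markers of microglia in the brain, were low here, at 4.69 to 16.0 CPM. Both were higher with IgG at an edgeR unadjusted p under 0.05 (log2 fold change 0.54 and 0.53, adjusted p 0.461 and 0.367), although P2ry12 was lower in pair 4. At that level 6 of the 10 microglia markers were higher, against 6.35% of all genes, and 0 were lower. The summed level of 8 markers of neutrophils, which also make IL-1β, was 0.954 to 2.05 CPM in the control and 1.08 to 2.46 CPM in the IgG libraries, and S100a9, Ly6g and Retnlg were at 0 counts in every library. In such bulk cultures a difference in the number of cells of a type and a difference in RNA per cell cannot be told apart.

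Promoters of the 4 genes that were higher with IgG in all 4 pairs are shown, since their values moved in one direction in every pair. Each runs from 250 bases before to 50 bases after the start of the gene in RefSeq (GRCm38.p6), 5′ to 3′ on the strand of the gene. The position is chr2:129371090-129371389 on the minus strand for Il1b, chr7:102018183-102018482 on the minus strand for Il18bp, chr9:5298267-5298566 on the plus strand for Casp1 and chr9:5308599-5308898 on the plus strand for Casp4. Capitals mark a match to the NF-kB consensus in Casp4 and to the core of the PU.1 motif in Casp1.
Il1b: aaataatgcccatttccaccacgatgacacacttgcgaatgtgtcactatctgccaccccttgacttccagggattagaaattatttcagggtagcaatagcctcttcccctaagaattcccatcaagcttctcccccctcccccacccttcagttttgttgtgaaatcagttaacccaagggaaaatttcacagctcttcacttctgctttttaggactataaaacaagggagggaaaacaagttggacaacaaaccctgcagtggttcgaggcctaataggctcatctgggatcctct
Il18bp: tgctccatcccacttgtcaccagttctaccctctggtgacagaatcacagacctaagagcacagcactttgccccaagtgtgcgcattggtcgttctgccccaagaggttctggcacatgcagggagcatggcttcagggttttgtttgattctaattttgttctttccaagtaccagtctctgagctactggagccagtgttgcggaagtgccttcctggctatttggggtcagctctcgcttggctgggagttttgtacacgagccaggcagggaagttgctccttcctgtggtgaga
Casp1: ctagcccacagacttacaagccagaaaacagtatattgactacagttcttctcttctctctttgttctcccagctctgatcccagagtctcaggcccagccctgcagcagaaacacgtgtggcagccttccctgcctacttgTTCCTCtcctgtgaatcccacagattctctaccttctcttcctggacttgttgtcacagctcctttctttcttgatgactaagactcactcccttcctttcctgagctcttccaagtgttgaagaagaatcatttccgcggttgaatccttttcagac
Casp4: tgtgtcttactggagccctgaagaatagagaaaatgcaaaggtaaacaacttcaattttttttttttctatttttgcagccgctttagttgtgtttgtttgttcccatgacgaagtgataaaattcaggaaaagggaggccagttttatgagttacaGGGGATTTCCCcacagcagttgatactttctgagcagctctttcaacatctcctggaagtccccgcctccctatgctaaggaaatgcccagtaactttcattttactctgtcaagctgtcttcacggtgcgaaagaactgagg

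Both strands of the windows of 9 of the 10 genes were searched for 4 motifs, and the share of all 32544 promoter windows of the same length with a match was counted. The windows of Il1b, Il18bp, Il18 and Il1rn held none of the 4. The NF-kB consensus, found in 4.53% of all promoters, matched Casp4 as the overlapping runs GGGGATTTCC and GGGATTTCCC, which start at positions -93 and -92 from the gene start, and matched a second start site of Nlrp3 at -186. The PU.1 core GAGGAA, found in 28.1% of all promoters, matched Il1a at -41, Casp1 at -108, Pycard at -42, and Nlrp3 at -220, -129 and -36. The core of the interferon response element, GAAANNGAA, and the STAT element, TTCNNNGAA, were in no window of these genes, against 8.53% and 8.33% of all promoters. A match is a run of letters, and factor binding was not measured.

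IgG against control was compared with edgeR's quasi-likelihood test with the replicate number as a block, since the labels give the libraries of a number the same date. Il1b rose, and it was the only gene of the 10 with a Benjamini-Hochberg adjusted p under 0.05, a level that 0.393% of all tested genes passed. Il1b and Il18bp met the criterion of the study (unadjusted p under 0.01 and a log2 fold change above 0.5 in size), which 1.82% of all genes met and 1.48% met in the upward direction. At an unadjusted p under 0.05, 4 of the 10 passed, namely Il1b, Il18bp, Casp1 and Casp4, all higher with IgG, against 10.2% of all genes in either direction and 6.35% in this one. These 4 genes were also the ones higher with IgG in all 4 pairs, as 10.4% of all genes were, and none of the 10 was lower in all 4, as 8.47% of all genes were. The median log2 fold change of the 10 genes was 0.19, against -0.0051 over all genes, and within pairs the median of the 10 was 0.19, 0.12, 0.33 and 0.18. Without the block, none of the 10 genes passed after adjustment (0% of all genes did) and none met the criterion (0.844% of all genes did), while Il1b and Il18bp passed an unadjusted p under 0.05 in edgeR (7.01% of all genes did).

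**Figure D1:**
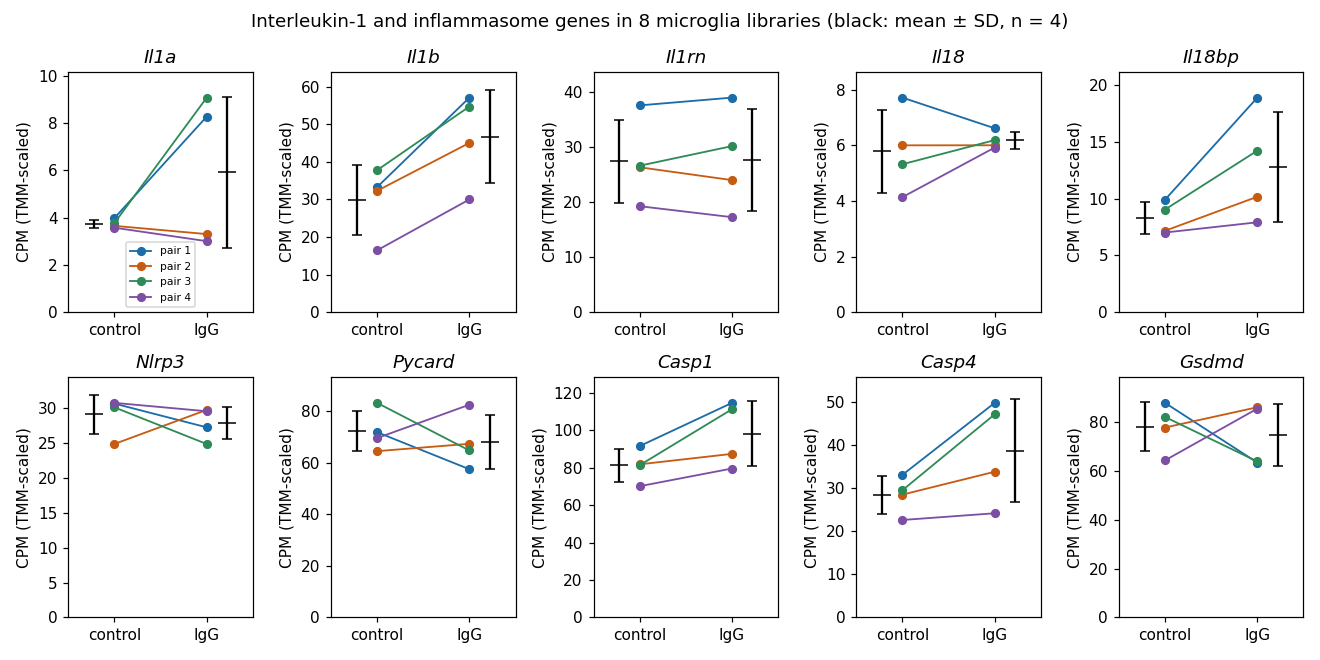
Level of each of the 10 genes in the 8 libraries, in CPM on an axis that starts at 0, with lines that join the control and the IgG library of a pair and black marks for the mean ± SD (n = 4). The 4 lines of Il1b, Il18bp, Casp1 and Casp4 all go up, the lines of Il1a go up in pairs 1 and 3 only, and control and IgG libraries overlap for each gene.

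Il1b encodes IL-1β (chromosome 2, 129364570 to 129371139, minus strand, GRCm38). It was at 33.3, 32.3, 37.8 and 16.5 CPM in control libraries 1 to 4, and at 57.1, 45.0, 54.7 and 30.0 CPM in the IgG libraries. Control library 4 was the lowest of all, and the IgG library of the same pair, at 30.0 CPM, stayed below 3 of the control libraries, so that the groups overlapped although each pair went up. The log2 change was 0.78, 0.48, 0.53 and 0.86 in pairs 1 to 4. The fit gave a log2 fold change of 0.66 ± 0.10 (SE; 95% interval 0.43 to 0.90), a 1.58-fold rise (edgeR adjusted p 0.0466). The fit that left out the block gave 0.64 ± 0.26 for Il1b, with an adjusted p of 0.692. The call was also lost with RLE scaling (adjusted p 0.0512), with a minimum of 10 counts in every library (0.0606), with scaling on total counts (0.118), and without pair 1 (0.219), pair 2 (0.248) or pair 3 (0.154). It held without pair 4 (0.0381), in pairs 2 and 4 alone (log2 fold change 0.67, adjusted p 0.000962) and with the trends removed (0.64, adjusted p 0.00773). It also held with DESeq2, limma-voom, a minimum of 1 count in any library and the likelihood ratio test (adjusted p 2.64e-05). The call thus held in 7 of 14 alternatives. Among these, the fit to pairs 2 and 4 alone rests on 4 libraries. That fit called 190 genes against 69 in the main fit, so its adjusted p is not comparable with the others. Il1b therefore had a similar size of change in all of these settings, from 0.56 to 0.72, with an adjusted p on either side of 0.05.

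Il1a encodes IL-1α, which is active without the cut that IL-1β needs (chromosome 2, 129299610 to 129309972, minus strand). The control libraries were close together, at 3.98, 3.65, 3.77 and 3.57 CPM. The IgG libraries were at 8.28, 3.30, 9.08 and 3.00 CPM and so fell into a high pair of values, in libraries 1 and 3, and a low pair, in libraries 2 and 4. The log2 change was 1.04, -0.14, 1.25 and -0.24 in pairs 1 to 4. The fit gave 0.52 ± 0.28 (95% interval -0.12 to 1.17) with an adjusted p of 0.548, which did not pass. With pairs 2 and 4 alone the log2 fold change was -0.20, the opposite direction. Libraries 1 and 3 of the IgG group are those with the higher mitochondrial share, and the part of that share in the values of Il1a was not tested. With the trends on length and GC content removed, the changes in Il1a were 0.91, -0.17, 1.14 and -0.28, and the 2 high pairs remained apart from the 2 low ones. Exons of Il1a share 222 bases with Gm14023 on the other strand, which had 306 counts in all against 856 for Il1a. The counts of Gm14023 were 28, 39, 28 and 44 in the control libraries and 49, 30, 62 and 26 in the IgG libraries, also highest in IgG libraries 1 and 3, and the part of shared reads was not tested.

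Il1rn encodes the IL-1 receptor antagonist (chromosome 2, 24336853 to 24351494, plus strand). It was at 37.7, 26.4, 26.7 and 19.3 CPM in the control libraries and at 39.1, 24.0, 30.2 and 17.3 CPM in the IgG libraries. Levels differed more between pairs than within a pair, and the changes in the pairs were 0.053, -0.13, 0.18 and -0.16. The log2 fold change of Il1rn was -0.012 ± 0.10 (95% interval -0.25 to 0.22; edgeR adjusted p 0.971).

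The antagonist was also set against its ligand within each library, where the ratio does not depend on the scaling of libraries. The ratio of Il1rn to Il1b counts was 1.13, 0.817, 0.706 and 1.17 in the control libraries and 0.684, 0.534, 0.552 and 0.577 in the IgG libraries. Each of the IgG ratios was below each of the control ratios. The log2 ratio changed by -0.727, -0.614, -0.354 and -1.02 in pairs 1 to 4, with a mean of -0.68 ± 0.278 (SD, n = 4 pairs). A two-sided exact sign-flip permutation test over the pairs gave p = 0.13, the smallest that 4 pairs allow, so that this test could not pass 0.05. A two-sided exact permutation of the group labels over the 8 libraries, without the block, gave p = 0.0286, which is the smallest value it can give. Per kb of principal transcript the Il1rn level was 0.387 to 0.643 times that of Il1b in the control and 0.293 to 0.375 times in the IgG libraries. Per kb of all exons these ratios were 0.243 to 0.404 and 0.184 to 0.236, so the level of the ratio depends on the length chosen, while its change does not.

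**Figure D2:**
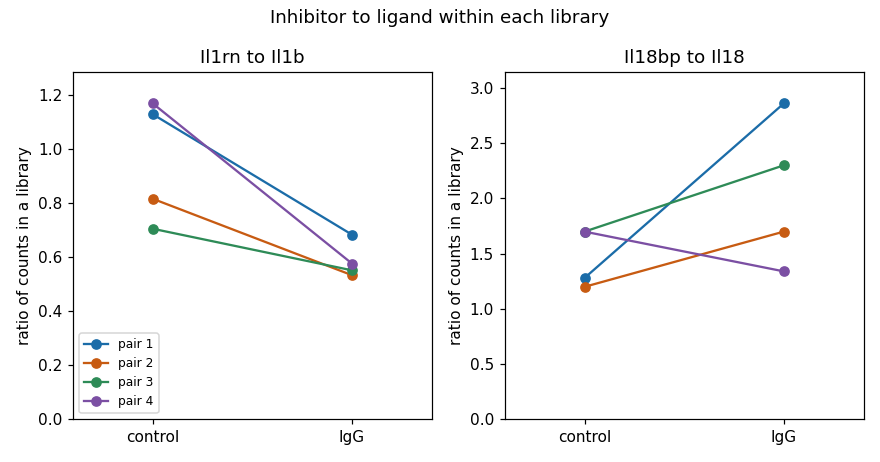
Ratio of Il1rn to Il1b counts (left) and of Il18bp to Il18 counts (right) within each library, on axes from 0, with lines that join the libraries of a pair. The left ratio is 0.706 to 1.17 in control and 0.534 to 0.684 in IgG libraries, and the right ratio goes up in pairs 1 to 3 and down in pair 4.

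Il18 encodes IL-18 (chromosome 9, 50554827 to 50581840, plus strand). Its level was 7.71, 6.0, 5.32 and 4.13 CPM in the control libraries and 6.61, 6.0, 6.18 and 5.92 CPM in the IgG libraries. The IgG values were close together and lay inside the range of the control values. The log2 changes of Il18 were -0.22, 0.00053, 0.21 and 0.51, and the fit gave 0.12 ± 0.16 (95% interval -0.25 to 0.49; adjusted p 0.792).

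Il18bp encodes the IL-18 binding protein (chromosome 7, 102014885 to 102018690, minus strand). It measured 9.91, 7.17, 9.04 and 7.02 CPM in the control libraries and at 18.9, 10.2, 14.2 and 7.92 CPM in the IgG libraries. IgG libraries 1 and 3 were the highest, and IgG library 4 lay below 2 of the control libraries. The log2 change was positive in every pair, at 0.93, 0.50, 0.65 and 0.17. The fit gave 0.58 ± 0.15 (95% interval 0.24 to 0.91), or 1.49-fold, with an unadjusted p of 0.0043 and an adjusted p of 0.245. Its adjusted p was 0.0345 with the likelihood ratio test and 0.0469 with a minimum of 1 count in any library, and 0.666 in pairs 2 and 4 alone, where the log2 fold change was 0.34. It missed the criterion of the study without pair 1, 2 or 3, with log2 fold changes of 0.45, 0.60 and 0.55. Exons of Il18bp share 80 bases with Numa1 on the other strand, a gene with 31812 counts in all libraries against 1884 for Il18bp, and whether strand was used in counting is not given in the sources used here.

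The ratio of Il18bp to Il18 counts was 1.28, 1.2, 1.7 and 1.7 in the control libraries and 2.86, 1.7, 2.3 and 1.34 in the IgG libraries. Its log2 change in the pairs was 1.15, 0.504, 0.436 and -0.343, with a mean of 0.438 ± 0.613 (SD, n = 4 pairs). The exact two-sided sign-flip permutation test gave p = 0.25, and the exact permutation of labels gave p = 0.171. The inhibitor of IL-18 thus was higher relative to its ligand in 3 of 4 pairs, a difference within the spread between pairs, while the inhibitor of IL-1 was lower relative to Il1b in 4 of 4. The fitted log2 fold change was -0.012 for Il1rn and 0.66 for Il1b. The lower ratio of Il1rn to Il1b thus mostly restates the rise of Il1b and is not a separate result.

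Nlrp3 encodes the sensor of the inflammasome that responds to loss of potassium and to many other signals (chromosome 11, 59541568 to 59566956, plus strand). The control libraries were at 30.7, 24.9, 30.1 and 30.8 CPM and the IgG libraries at 27.3, 29.8, 24.9 and 29.6 CPM. The ranges were nearly the same, and Nlrp3 was lower with IgG in 3 pairs and higher in pair 2. The log2 fold change was -0.062 ± 0.11 (95% interval -0.32 to 0.20; adjusted p 0.858), so a change in Nlrp3 as large as that fitted for Il1b lay outside this interval.

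Pycard encodes ASC, which links the sensor to the caspase (chromosome 7, 127989708 to 127993867, minus strand). It was at 71.9, 64.5, 83.3 and 69.6 CPM in the control libraries and at 57.5, 67.4, 64.8 and 82.6 CPM in the IgG libraries. Pairs 1 and 3 went down, by log2 changes of -0.32 and -0.36, and pairs 2 and 4 went up, by 0.062 and 0.25. The fit of Pycard gave -0.094 ± 0.12 (95% interval -0.38 to 0.19; adjusted p 0.789). Its exons share 485 bases with Gm45205 on the other strand, which had 8006 counts against 12698 for Pycard.

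Casp1 and Casp4 lie next to each other on the plus strand of chromosome 9, Casp1 from 5298517 to 5307265 and Casp4 from 5308828 to 5336783. Casp1, the protease of the inflammasome, was at 91.6, 81.9, 81.4 and 70.2 CPM in the control libraries and at 115, 87.4, 111 and 79.6 CPM in the IgG libraries. Casp4 was at 33.1, 28.5, 29.6 and 22.7 CPM in the control libraries and at 49.9, 33.9, 47.2 and 24.2 CPM in the IgG libraries. For both genes IgG libraries 1 and 3 lay above all control libraries, whereas IgG library 4 lay within the control range. The log2 changes of Casp1 were 0.32, 0.095, 0.45 and 0.18 and those of Casp4 were 0.59, 0.25, 0.67 and 0.096, so that both were positive in each pair and larger in pairs 1 and 3. The fit gave 0.26 ± 0.094 for Casp1 (95% interval 0.047 to 0.48; unadjusted p 0.023, adjusted p 0.428). For Casp4 it gave 0.41 ± 0.12 (95% interval 0.13 to 0.68; unadjusted p 0.0095, adjusted p 0.346). Neither passed the adjustment in any of the 14 alternatives. In pairs 2 and 4 alone the log2 fold change was 0.14 for Casp1 and 0.17 for Casp4. With the trends removed the changes of Casp4 in pairs 1 to 4 were 0.35, 0.22, 0.42 and 0.17, a narrower range than before. The fitted log2 fold changes were then also smaller, at 0.30 for Casp4 and 0.19 for Casp1.

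Gsdmd encodes gasdermin D, the substrate of both caspases (chromosome 15, 75862327 to 75867408, plus strand). The control libraries were at 87.8, 77.7, 82.0 and 64.3 CPM and the IgG libraries at 63.3, 86.0, 63.8 and 85.4 CPM. It was lower with IgG in pairs 1 and 3, with log2 changes of -0.47 and -0.36, and higher in pairs 2 and 4, at 0.15 and 0.41. The fit across the pairs gave -0.069 ± 0.15 (95% interval -0.42 to 0.28; adjusted p 0.882), and with pairs 2 and 4 alone the direction turned, at 0.28. The exons of Gsdmd have the highest GC content of the 10 genes, at 0.547, against 0.410 for Casp4, the lowest. With the trends removed the changes of Gsdmd shrank to -0.30, 0.13, -0.18 and 0.19, in the same directions.

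**Figure D3:**
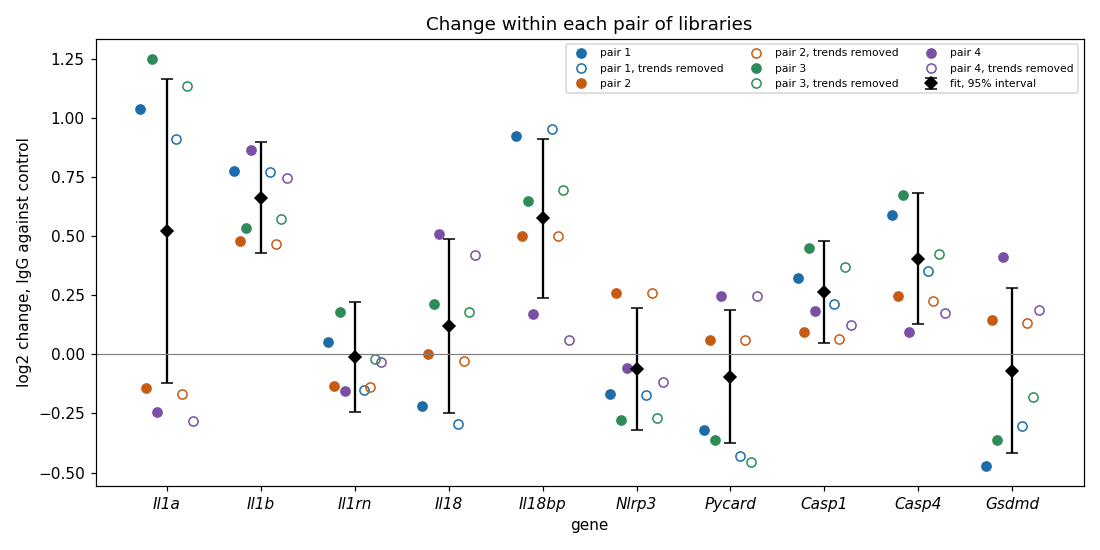
Log2 change between the IgG and the control library of each pair (filled circles), the same with trends on gene length and GC content removed (open circles), and the estimate of edgeR with its 95% interval (black diamonds), for the 10 genes. The filled circles of Il1b lie between 0.48 and 0.86. In Il1a, Il1rn, Pycard and Gsdmd the filled circles of pairs 1 and 3 lie on one side of 0 and those of pairs 2 and 4 on the other.

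The levels of different genes were compared per kb of the principal transcript of GENCODE M21. In the control libraries Casp1 had the highest level, 54.3 ± 5.86 CPM per kb (SD, n = 4), followed by Gsdmd at 43.5 ± 5.59. These neighbours in the order overlapped between libraries. Il1b at 22.1 ± 6.86, Casp4 at 19.8 ± 3.03 and Pycard at 19.0 ± 2.09 CPM per kb formed the next group, each of which overlapped with its neighbour. Il1rn followed at 11.1 ± 3.07, and then Nlrp3 at 7.24 ± 0.706, Il18 at 6.73 ± 1.74 and Il18bp at 5.20 ± 0.892 CPM per kb, of which each overlapped with the next. Il1a was the lowest, at 1.90 ± 0.0896 CPM per kb, with no overlap with Il18bp. With IgG, Il1b was at 34.5 ± 9.08 and Il1a at 3.00 ± 1.62 CPM per kb. With the length of all exons of a gene in place of the principal transcript, Casp1, Gsdmd, Il18bp and Il1a kept their places in the order, but Il1b, at 15.7 ± 4.88 CPM per kb, came below Pycard, and Casp4 was at 7.67 ± 1.17 CPM per kb. Il1rn, at 4.97 ± 1.37 CPM per kb, then came below Nlrp3 and Il18.

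**Figure D4:**
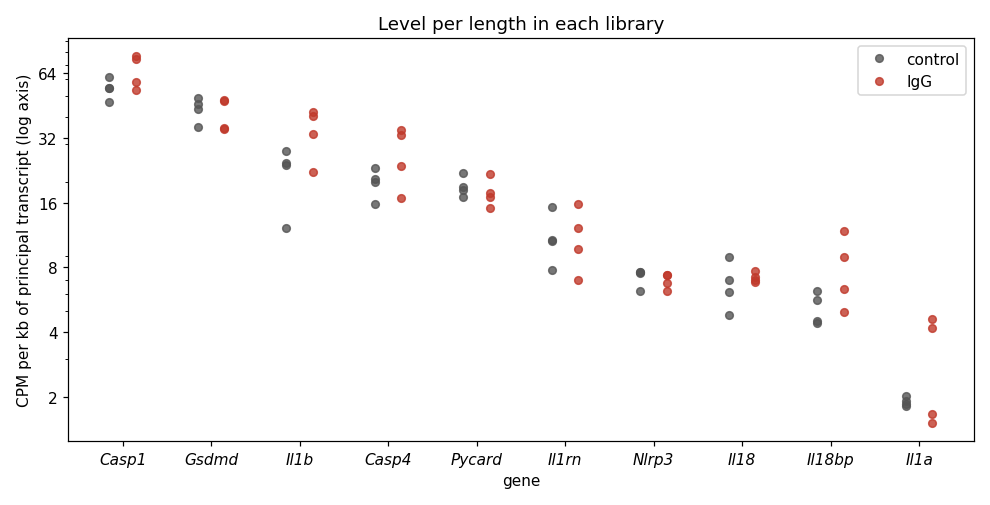
Level of the 10 genes in each library in CPM per kb of principal transcript, on a log axis, with control libraries in grey and IgG libraries in red, in the order of the control mean. Casp1 and Gsdmd are at the top, Il1a is at the bottom, and the IgG libraries of Il1a fall into 2 pairs.

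The other genes of the pathway were taken from 7 lists of IL-1 family ligands and receptors, receptor signalling, other inflammasome sensors, inflammasome partners, pore formation and NF-kB targets. Of 73 genes in these lists 54 were tested. None passed the adjustment in edgeR's quasi-likelihood test with the filter and scaling used here, with or without the block, while 9 were higher and 2 were lower at an unadjusted p under 0.05, and 10 passed that level without the block. Of all genes, 6.35% were higher at that level and 10.2% passed it in either direction with the block, and 7.01% passed it without. With the block, 5 of the 54 passed adjustment in DESeq2 (1.32% of all genes did), 5 in the likelihood ratio test (1.86%) and 1 in limma-voom (0.502%). The criterion of the study was met by 5, all higher with IgG: Ifi208, Gbp5, Trim30a, Mlkl and Nfkbiz, against 1.48% of all genes. All 5 are named for their values, and Trim30a is outside the rule on size that names the others. The criterion was met by 1 gene of these lists without the replicate block (0.844% of all genes) and by 1 in pairs 2 and 4 alone. The median log2 fold change of the 54 was 0.10, and in pairs 1 to 4 the median was 0.17, 0.094, 0.21 and -0.059.

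The receptors of IL-1 and IL-18 were low. Il1r1, the signalling receptor of IL-1, was at 1.31 to 2.33 CPM in the control libraries and at 1.06 to 2.21 CPM in the IgG libraries, with a log2 fold change of -0.16 ± 0.29 (adjusted p 0.857). Il1r2, the decoy receptor, was at 0 in the control libraries and at most at 0.0491 CPM in an IgG library, and Il18r1, which binds IL-18, was at 0.0451 CPM at most, both under the 0.124 to 0.147 CPM that 3 counts make at this depth. Il18rap, its partner chain, was at 0.502 to 0.722 CPM in the control and at 0.364 to 0.478 CPM in the IgG libraries. Each IgG library lay below each control library, as for 1.57% of all genes, but the fit gave -0.52 ± 0.32 with an adjusted p of 0.595. Sigirr, an inhibitory receptor of the family, was at 0 to 0.589 CPM and was not tested. Il1rap, the co-receptor of IL-1, was the most abundant of those named, at 13.9 to 17.1 and 14.3 to 20.02 CPM (log2 fold change 0.12 ± 0.15). Among the ligands outside the 10 genes, 4 of 6 had no count in any library, and 1 was tested.

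Genes of receptor signalling had 1 of 12 members past an unadjusted p under 0.05, a share near the 10.2% of all genes. This was Irak3, a kinase relative that restrains the pathway, at 9.34 to 11.6 CPM in the control and 11.2 to 19.0 CPM in the IgG libraries (log2 fold change 0.48 ± 0.19, adjusted p 0.464). Its log2 changes were 0.82 and 0.99 in pairs 1 and 3 and 0.024 and 0.068 in pairs 2 and 4. Myd88, the adaptor of the receptor, had a log2 fold change of 0.13 ± 0.094.

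Of the other sensors 8 of 12 were tested, and 1 passed an unadjusted p under 0.05, also a share near the 10.2% of all genes. Nlrp1b, a sensor of proteases, averaged 7.14 ± 0.974 CPM without and 9.23 ± 0.856 CPM with IgG (log2 fold change 0.37 ± 0.14, adjusted p 0.452). Aim2, the sensor of DNA in the cytosol, was at 46.5 ± 6.58 and 49.99 ± 6.95 CPM (0.10 ± 0.093). Nlrc4, the sensor of flagellin through NAIP proteins, was at 19.1, 12.0, 20.6 and 11.6 CPM in the 4 control libraries and 36.2, 13.9, 30.6 and 9.70 CPM in the 4 IgG libraries, a change of 0.38 ± 0.18 that was negative in pair 4.

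Among 12 tested partners and regulators 5 were higher and 1 was lower at an unadjusted p under 0.05, against 6.35% of all genes higher and 10.2% in either direction. Ifi208, a PYHIN family member listed under its other symbol Pydc3, was at 2.36, 0.857, 2.14 and 0.431 CPM in the control and at 6.10, 1.65, 4.71 and 0.910 CPM in the IgG libraries. Every pair went up, and the log2 fold change was 1.16 ± 0.20 with an adjusted p of 0.0596. Gbp5, an interferon-induced GTPase tied to NLRP3 assembly, averaged 3.67 ± 1.09 CPM without and 7.26 ± 3.63 CPM with IgG (0.92 ± 0.20, adjusted p 0.166). Trim30a, an interferon-induced protein that restrains NLRP3, had a log2 fold change of 0.55 ± 0.13 (adjusted p 0.197). The 1 lower gene was Serpinb1a, an inhibitor of proteases, at 0.995 to 1.38 CPM in the control and 0.555 to 1.09 CPM in the IgG libraries. It was lower in all 4 pairs (-0.80 ± 0.28, unadjusted p 0.019, adjusted p 0.406) and was named after its values were seen. In contrast, Nek7, which binds NLRP3, had 0.19 ± 0.14, Txnip -0.057 ± 0.085, and P2rx7, the ATP-gated channel upstream of NLRP3, 0.12 ± 0.095, and none of these 3 passed an unadjusted p under 0.05.

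Of 5 tested genes of pore formation and cell rupture 1 was higher and 1 was lower at an unadjusted p under 0.05 (10.2% of all genes in either direction). Mlkl, the pore protein of necroptosis, was at 5.56, 4.33, 6.24 and 2.58 CPM in the 4 control libraries and 15.4, 5.74, 12.47 and 4.14 CPM in the 4 IgG libraries (log2 fold change 0.92 ± 0.19, adjusted p 0.127). Ripk3, the kinase that activates it, had -0.36 ± 0.14 (adjusted p 0.464) and was lower in all 4 pairs. Gsdme, another gasdermin, had 0.21 ± 0.14.

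Of 11 tested NF-kB targets of the priming step 1 passed an unadjusted p under 0.05, near the 10.2% of all genes. Nfkbiz, an NF-kB cofactor, was at 55.3, 47.6, 54.6 and 39.9 CPM in the control libraries and at 81.7, 90.9, 75.6 and 60.2 CPM in the IgG libraries. Each IgG library lay above each control library, as for 2.6% of all genes, and the log2 fold change was 0.64 ± 0.10 with an adjusted p of 0.052. Tnf averaged 17.6 ± 2.05 CPM without and 18.9 ± 3.02 CPM with IgG (0.10 ± 0.15). Nfkbia, the inhibitor whose transcript follows NF-kB activity, was at 64.6 ± 2.62 and 65.5 ± 9.96 CPM (0.0077 ± 0.11, or -0.093 with scaling on total counts, which moved the median of all genes to -0.105). Both Tnf and Nfkbia were higher in pairs 2 and 4 and lower in pairs 1 and 3.

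**Figure D5:**
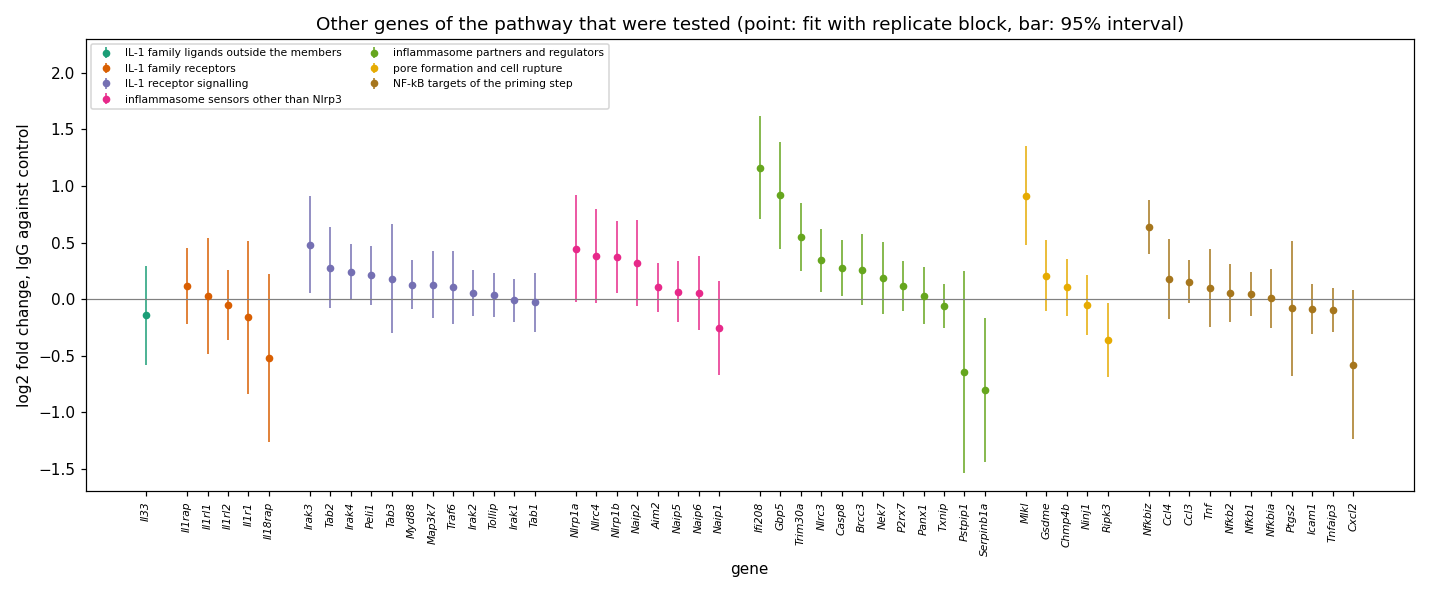
Log2 fold change with its 95% interval for the 54 tested genes of 7 lists, grouped by list and ordered within it. Ifi208, Gbp5, Mlkl, Trim30a and Nfkbiz lie above 0.5 with intervals above 0, and most other intervals include 0.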

How the data were processed

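Counts per gene of 8 libraries of cultured mouse microglia (4 control, 4 IgG) were analysed. The table the authors deposited gives whole-number counts for each Ensembl gene, with no normalization. Messenger RNA was captured on oligo(dT), and reads were aligned to mm10 with HISAT2. The submitters' processing notes name HISAT2 2.2.1, SAMtools 1.12, Picard 2.26.3, R 4.1.2, featureCounts and edgeR 3.36.0. The annotation, the use of strand and the treatment of reads with several alignments are not given in the sources used here, so genes that share exon bases are uncertain.

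GENCODE M21 (GRCm38) gave symbols, positions, exon lengths and GC content and held 55144 of 55385 identifiers, and RefSeq gave promoters. Symbols of the annotation were used for the lists, so that Pydc3 and Pydc4 were read as Ifi208 and Ifi213. Counts were filtered with filterByExpr, scaled with TMM and compared by quasi-likelihood (edgeR 4.0.16, R 4.3.3), with the replicate number as a block. P-values were adjusted by Benjamini-Hochberg over all 17537 genes tested. Log2 changes in a pair are differences of log2 CPM with a prior count of 2. Alternatives used other scalings, filters and tests (DESeq2 1.42.0, limma 3.58.1), left out pairs, or removed each library's trend on exon length and GC content (lowess, span 0.3), which 99.81% of tested genes had. The statistics were tested on simulated data that held pair effects but no trends on length or GC content, so that check does not cover such trends.

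Libraries of both groups that carry one replicate number carry one date in the labels, so the numbers pair the samples. Deviations from the group means correlated over 12485 genes at 0.443, 0.363, 0.246 and 0.31 within pairs, against -0.371 to 0.235 otherwise. No libraries of a group agreed within sampling noise (chi-square per degree of freedom of at least 5). Floors cover counting error only. What the shared date stands for is not given in the sources used here, and p-values measure the spread between these libraries, which may be technical. Named genes were the 10 members, 16 pathway genes fixed by name, and up to 2 genes per list with the largest change at an unadjusted p under 0.05. The members and lists were chosen with earlier results of these data known.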

Additional observations from a re-analysis of the deposited data

Results flagged for a closer look

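The level of each named gene was checked for a library far from the other 3 of its group, by the gap to the nearest library over the range of the group. Of 62 groups of 4 libraries 2 stood out, and chance gives about 1 in 20. In control library 2 Nlrp3 was lowest, at 24.9 CPM, against 30.1 to 30.8 CPM in the other control libraries. In control library 4 Il1r1 was highest, at 2.33 CPM, against 1.31 to 1.37 CPM in the others.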

How the results depend on the processing

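In all 14 alternatives Il1b, Il18bp, Casp1 and Casp4 were higher with IgG. These genes were higher in each pair, so their direction in other fits to the same libraries was close to fixed. It adds no separate support. Of the 10 genes, the number past adjustment was 1 with the replicate block, and 0 without it, with total counts, with RLE scaling and with at least 10 counts in every library. It was 2 with at least 1 count in any library and with the likelihood ratio test. With DESeq2, with limma-voom, with trends removed and in pairs 2 and 4 alone it was 1, and it was 0 to 1 when a pair was left out. The number that met the criterion of the study was 0 without the replicate block, 1 with total counts and in pairs 2 and 4 alone, and 1 to 2 when a pair was left out. Of the 73 pathway genes, 54 were tested with the main filter. The filter of at least 1 count tested more genes (31368 of all genes, against 17537). Of the pathway genes tested, 0 passed adjustment in the quasi-likelihood test with or without the block, 5 with at least 1 count, with DESeq2 and with the likelihood ratio test, 3 with trends removed, 1 with limma-voom and in pairs 2 and 4 alone, and 0 to 2 with a pair left out (2 without pair 4). The criterion was met by 5 of these genes with the block, and by 1 without the replicate block and in pairs 2 and 4 alone.

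Over all genes, 69 passed adjustment. The number was 0 without the replicate block, 37 with total counts, 376 with at least 1 count, 231 with DESeq2, 327 with the likelihood ratio test, 190 in pairs 2 and 4 alone, 205 with trends removed, and 0 to 182 with a pair left out (14, 0, 16 and 182 without pairs 1 to 4). The criterion was met by 320 genes, and by 148 without the replicate block, 648 with at least 1 count, 528 with the likelihood ratio test and 215 to 762 with a pair left out (762 without pair 4). The share of these genes that were higher with IgG was 260 of 320, and 172 of 312 with total counts.

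Among genes that did not pass, the log2 fold change turned sign in pairs 2 and 4 alone for Il1a (-0.20), Nlrp3 (0.10), Pycard (0.16), Gsdmd (0.28), Il1rap (-0.19), Nlrc4 (-0.018) and Nek7 (-0.13). It turned without the replicate block for Il1rn (0.0077), and for Nfkbia with total counts (-0.093) and at least 10 counts (-0.021). With a pair left out the range was -0.076 to 0.027 for Il1rn, -0.022 to 0.24 for Il18, -0.17 to 0.011 for Nlrp3, -0.24 to 0.066 for Gsdmd, -0.48 to 0.060 for Il1r1, -0.021 to 0.22 for Il1rap, -0.046 to 0.21 for Tnf and -0.11 to 0.087 for Nfkbia. The mean log2 change of the ratio of Il1rn to Il1b was -0.68 with and without the replicate block, with permutation p 0.13 and 0.0286 (exact tests), and -0.788 to -0.565 with a pair left out. That of Il18bp to Il18 was 0.199 to 0.698. The causes were not tested. With pairs 2 and 4 alone the fit rests on 4 libraries.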
